A study of Homo sapiens with 8 samples.

Results

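The genes described here are 41 genes of the NRF2 pathway and of the glutathione, thioredoxin, peroxiredoxin and ferritin systems, matched by symbol to the Ensembl identifiers of the 58051 genes in the raw count files. Of these 41 genes, 34 had enough reads to be tested, among 7550 tested genes in all. Expression was measured by 3' mRNA sequencing, which reads the ends of polyadenylated transcripts, in MDA-MB-231 (MDA231) cells, a line derived from a triple-negative breast carcinoma. The 8 samples were 2 of parental, unmodified cells, 3 of cells with a knockout of SDHB (SDHBKO cells) and 3 of cells with the same knockout and a knockdown of SDHA (SDHBKOSDHAlow cells). SDHA and SDHB are the catalytic and the iron-sulphur subunit of mitochondrial complex II, succinate dehydrogenase, and the comparisons ask what follows from loss of SDHB and from lowering SDHA on top of it. All cells were harvested at 70% confluency in full medium with no treatment. The knockout was made with a TALEN nuclease directed at exon 1 of SDHB and selected with hygromycin, and the knockdown with a plasmid shRNA and puromycin. The labels number the replicates but do not say whether the SDHBKO samples carried an empty vector, which shRNA was used, or whether replicates came from separately derived sublines, so that what a subline carries by itself and what a modification does cannot be told apart. Where replicates were not separate cultures, p-values measure only technical spread.

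NRF2, encoded by NFE2L2, is a transcription factor that KEAP1 holds in the cytosol and sends to degradation. Oxidants and electrophiles modify cysteines of KEAP1, after which NRF2 accumulates, pairs with a small MAF protein such as MAFG and binds antioxidant response elements (AREs) in its target genes. These targets make and use glutathione, reduce peroxides through thioredoxin and peroxiredoxins, detoxify quinones and carbonyls, break down haem, store iron as ferritin and pump conjugates out of the cell. NRF2 is regulated mainly through protein stability, which RNA counts do not measure.

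The core of the ARE was searched as TGACNNNGC on both strands, because the list was built around the NRF2 pathway. Whether NRF2 regulates each member was not tested. The window was the 300 bases around each RefSeq start site (250 before and 50 after, GRCh38.p14). A promoter sequence was found for 30 of the 41 members. The core was present in 6 of these 30 (20%), namely GSTP1, GCLM, TXNRD1, GSTO1, KEAP1 and MGST1, compared with 16.1% of 27305 genes, so that members held it at close to the background share. The matches before a start site are shown with 10 bases on each side, 5′ to 3′ on the strand of the gene, with the 9 bases of the match in capitals.
GSTP1, chr11:67583736-67583764, plus strand, 66 to 58 bases before the start: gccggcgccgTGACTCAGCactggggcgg
GCLM, chr1:93909446-93909474, minus strand, 34 to 26 bases before: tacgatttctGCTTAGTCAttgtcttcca
TXNRD1, chr12:104215670-104215698, plus strand, 99 to 91 bases before: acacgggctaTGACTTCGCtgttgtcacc
TXNRD1, second start, chr12:104286920-104286948, plus strand, 102 to 94 bases before: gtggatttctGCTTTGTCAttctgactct
GSTO1, chr10:104254656-104254684, plus strand, 226 to 218 bases before: ggcggagggaTGACTGAGCatttataact
GSTO1, second match, chr10:104254721-104254749, plus strand, 161 to 153 bases before: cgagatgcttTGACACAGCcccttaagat
KEAP1, chr19:10502807-10502835, minus strand, 54 to 46 bases before: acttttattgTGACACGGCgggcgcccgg
KEAP1, second match, chr19:10502784-10502812, minus strand, 31 to 23 bases before: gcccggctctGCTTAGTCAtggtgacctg
The GSTP1 match also contains the AP-1 core TGANTCA. The match in MGST1 lay after its start site and is not shown. PRDX5, GPX4 and NNT, members described later, had no match in their window. SLC7A11, ABCC1, GSR, PRDX1, GSS, FTH1, SOD1, HMOX1, PRDX6, TXN2 and ABCC3 were not in the promoter table. A match is a string of letters and not a measured binding site.

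Reads counted on genes numbered 773042 to 1427141 per sample. CPM are counts per 1000000 reads counted on the tested genes, scaled by TMM, and 3 counts of a gene corresponded to 2.24 to 4.1 CPM. SDHA, the target of the knockdown, was at 74.0 and 91.6 CPM in parental, 148, 135 and 151 CPM in SDHBKO, and 8.45, 12.7 and 17.8 CPM in SDHBKOSDHAlow cells (log2 fold change against SDHBKO -3.46 ± 0.28 SE, adjusted p = 1.16e-07, edgeR). SDHB had 4 and 3 counts in parental, 0, 3 and 1 in SDHBKO and 0, 2 and 1 in SDHBKOSDHAlow cells, too few to check the knockout. Markers of the line such as VIM, CD44 and AXL were present at 198 CPM or more in all 8 samples, and ANXA1, also listed for the line, was at 5.78 CPM or less. Of the luminal and other cell-type markers, ESR1, PGR, PTPRC, CD3E, COL3A1 and ALB had no reads, and CDH1, ERBB3, TFF1, COL1A1 and PECAM1 were at 0 to 4.63 CPM. GATA3, a luminal gene listed as low in this line, was at 8.91 to 22.2 CPM in the 8 samples. SDHBKOSDHAlow replicate 2 stood apart: it had the most reads, and it differed from the other replicates of its group by a chi-square per degree of freedom of 9.44 and 10.2, compared with 3.04 between those 2 samples. SDHBKO replicates 1 and 3 and SDHBKOSDHAlow replicate 2 had a relative excess of genes with GC-rich 3' ends (a log2 gap of 0.23, 0.24 and 0.23 between the highest and the lowest of 5 equal groups of genes by GC content), and the other 5 samples lay between -0.26 and 0.07.

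A gene was called where its Benjamini-Hochberg adjusted p was below 0.1 in the quasi-likelihood test of edgeR with all 8 samples in 1 fit. In SDHBKO against parental cells 4 of the 34 tested members were called: GSTP1 and PRDX5 were higher, and GPX4 and FTH1 lower. This is 11.8% of the members, where 5.54% of all tested genes were called (3.14% higher and 2.4% lower). Between SDHBKOSDHAlow and SDHBKO cells 4 members were called: FTH1 was higher, and GSTP1, ABCC3 and NNT lower, against 1.51% of all tested genes (0.318% higher and 1.19% lower). Between SDHBKOSDHAlow and parental cells ABCC3, which was lower, was the 1 member called, or 2.94% of the members against 0.914% of all tested genes (0.225% higher and 0.689% lower). A single test of any difference among the 3 groups called 5 members, GSTP1, FTH1, ABCC3, NNT and PRDX5, against 4.37% of all tested genes. The comparisons share samples, so a member that differs in 2 of them is not counted as 2 independent observations.

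Members lay on both sides of 0 in every comparison. In SDHBKO against parental cells 20 of the 34 had a positive and 14 a negative log2 fold change, with a median of 0.09, where the median over all tested genes was -0.001. The medians were 0.09 in SDHBKOSDHAlow against SDHBKO cells (0.01 over all tested genes) and 0.12 against parental cells (0.02 over all tested genes). The log2 fold change was within 0.5 of zero for 21, 24 and 23 of the 34 members in these 3 comparisons, in the same order. Without SDHBKO replicate 1 the first median was -0.08, so its direction rests on that sample.

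**Figure D1:**
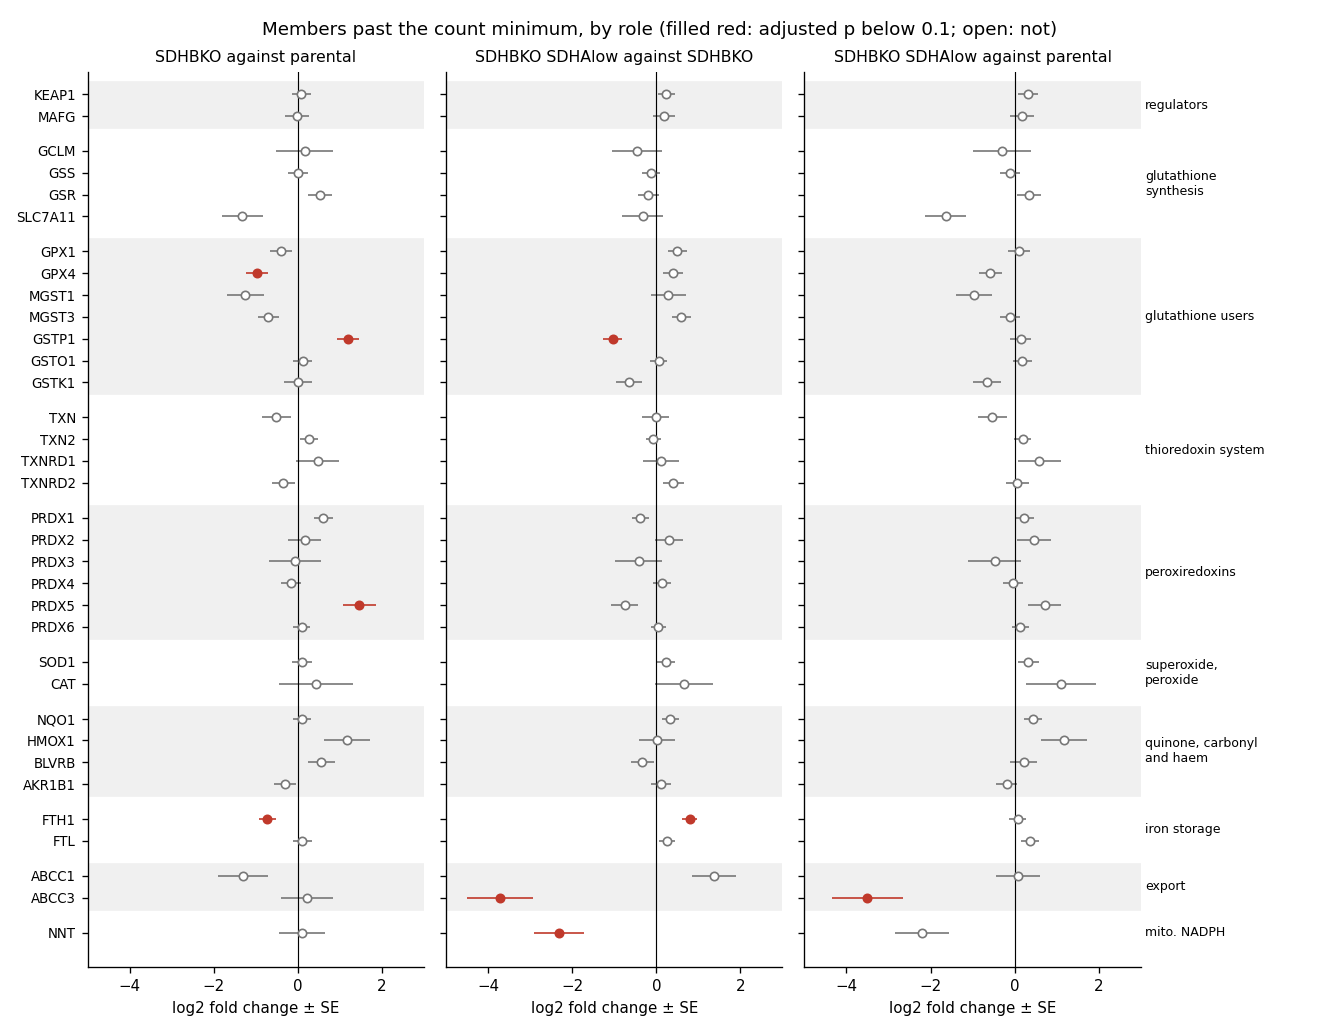
Log2 fold change with its standard error for the 34 tested members (rows, grouped by role) in the 3 comparisons (columns); filled red points had an adjusted p below 0.1 and open points did not. Red points lie on both sides of 0 in the first 2 columns, and most open points lie within 0.5 of it.

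Among the regulators, NFE2L2 itself was near the limit of detection. It had 5 and 10 counts in parental, 8, 3 and 2 in SDHBKO, and 3, 3 and 0 in SDHBKOSDHAlow cells, below the count minimum for a test. Its exons overlap those of neighbouring genes, and whether reads were counted by strand is not given in the sources used here. KEAP1, the adaptor that marks NRF2 for degradation, was at 220 and 188 CPM in parental, 226, 182 and 241 CPM in SDHBKO, and 220, 307 and 236 CPM in SDHBKOSDHAlow cells. The groups overlapped in every comparison, and the log2 fold change of SDHBKO against parental cells was 0.08, with a 95% confidence interval from -0.40 to 0.56. MAFG, the small MAF partner of NRF2, was between 42.1 and 65.2 CPM in all samples, with a log2 fold change of -0.02 (95% interval -0.62 to 0.58) in the same comparison. MAFG shares overlapping exons with SIRT7 on the same strand.

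Of the classical targets of NRF2, NQO1, HMOX1, TXNRD1, GCLM and SLC7A11 were tested and none was called. GCLC and SRXN1 had too few reads for a test. The absence of a call does not show the absence of a change. NQO1, the quinone reductase most often used as an NRF2 readout, was at 132 and 158 CPM in parental, 144, 156 and 165 CPM in SDHBKO, and 204, 190 and 194 CPM in SDHBKOSDHAlow cells. The last 3 samples lay above the other 5, with a log2 fold change of 0.44 ± 0.22 against parental cells that was not called (adjusted p = 0.437, edgeR). HMOX1, which opens haem to biliverdin, iron and carbon monoxide, was at 19.7 and 19.9 CPM in parental, 60.2, 20.0 and 54.0 CPM in SDHBKO, and 30.2, 81.3 and 17.8 CPM in SDHBKOSDHAlow cells. The samples with the 3 highest values, SDHBKO replicates 1 and 3 and SDHBKOSDHAlow replicate 2, were also the samples with the excess of GC-rich genes, and its part in the values was not tested beyond a correction for GC content, after which the log2 fold change of SDHBKO against parental cells was 1.14 in place of 1.16. This difference was not called (adjusted p = 0.274, edgeR). It was called in 2 of 14 alternatives. The lowest adjusted p (0.0898, edgeR) came without SDHBKOSDHAlow replicate 2, a sample outside this comparison, in a fit that called more members in all. TXNRD1, the cytosolic thioredoxin reductase, was at 16.2 and 7.96 CPM in parental, 10.9, 17.8 and 21.6 CPM in SDHBKO, and 25.3, 14.2 and 16.7 CPM in SDHBKOSDHAlow cells, and its groups overlapped. SRXN1, which restores over-oxidised peroxiredoxins, had 0 counts in all 8 samples. A gene on the same strand overlaps its exons, and reads in a shared stretch may be counted on neither gene, so this 0 sets no limit on its level.

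**Figure D2:**
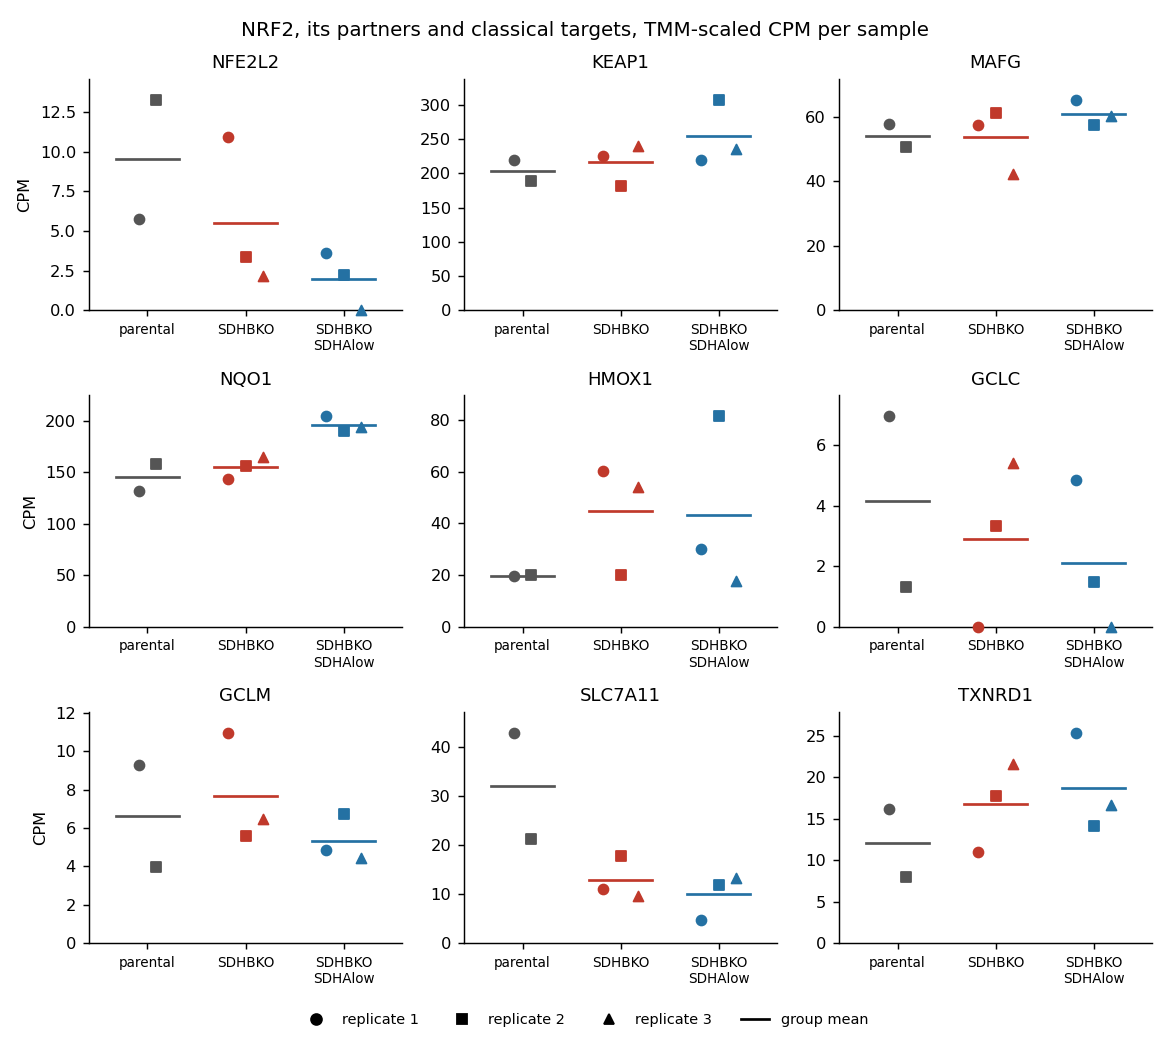
CPM per sample (y axis, from 0) of NFE2L2, its partners KEAP1 and MAFG, and 6 classical targets, by group (x axis); symbols mark replicates and bars group means. NQO1 lies at 190 to 204 CPM in SDHBKOSDHAlow cells and at 132 to 165 CPM in the other 5 samples, while HMOX1 spreads within both modified groups.

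Of the genes that make or supply glutathione, 4 of 5 were tested and none was called. SLC7A11, the light chain of the cystine importer that feeds cysteine into glutathione, was at 42.8 and 21.2 CPM in parental, 10.9, 17.8 and 9.71 CPM in SDHBKO, and 4.83, 11.9 and 13.4 CPM in SDHBKOSDHAlow cells. Both parental samples were above all 6 modified samples, and the log2 fold change was -1.32 ± 0.49 in SDHBKO (adjusted p = 0.149) and -1.64 ± 0.49 in SDHBKOSDHAlow against parental cells (adjusted p = 0.153, edgeR). These differences missed the threshold. The parental samples also differed from each other, and over the alternatives the log2 fold changes ranged from -1.72 to -0.72 (called in 2 of 14) and from -2.05 to -1.04 (called in 1 of 14), each smallest without parental replicate 1. An antisense gene overlaps its exons. GCLC and GCLM, the catalytic and modifier subunits of the rate-limiting enzyme, had few reads: GCLC had 0 to 6 counts and was not tested, and GCLM had 3 to 9 counts, with a log2 fold change of 0.16 in SDHBKO against parental cells and a wide 95% interval from -1.25 to 1.56. GSR, which regenerates reduced glutathione, was at 47.4 and 39.8 CPM in parental and at 57.5, 64.5 and 68.0 CPM in SDHBKO cells, a difference that was not called (log2 fold change 0.54 ± 0.29, adjusted p = 0.345). GSS, which completes glutathione synthesis, was between 93.6 and 125 CPM in all samples.

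Among the enzymes that use glutathione, GSTP1 and GPX4 differed in opposite directions between SDHBKO and parental cells. GSTP1, the pi-class transferase that joins glutathione to electrophiles, was at 349 and 364 CPM in parental, 1050, 571 and 807 CPM in SDHBKO, and 399, 492 and 289 CPM in SDHBKOSDHAlow cells. The SDHBKO samples lay above all others, and the SDHBKOSDHAlow samples overlapped the parental ones. GSTP1 rose 2.27-fold in SDHBKO against parental cells (log2 fold change 1.18 ± 0.26, adjusted p = 0.0202) and fell by 1.04 ± 0.23 on the log2 scale in SDHBKOSDHAlow against SDHBKO cells (adjusted p = 0.027, edgeR). Between SDHBKOSDHAlow and parental cells the log2 fold change was 0.14, with a 95% interval from -0.38 to 0.67. After the correction for GC content both calls held, at 1.12 and -0.95. The first was lost without parental replicate 1 (adjusted p = 0.397), parental replicate 2 (0.164) or SDHBKO replicate 1 (0.127), and the second without SDHBKO replicate 1 (0.203), SDHBKO replicate 3 (0.115) or SDHBKOSDHAlow replicate 3 (0.208). The log2 fold change stayed between 0.95 and 1.38 for the first and between -1.26 and -0.81 for the second over all 15 alternatives.

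GPX4, the selenoenzyme that reduces lipid hydroperoxides in membranes, was at 479 and 550 CPM in parental, 209, 232 and 343 CPM in SDHBKO, and 246, 498 and 285 CPM in SDHBKOSDHAlow cells. It was lower in all 3 SDHBKO samples than in both parental samples (514 ± 49.9 CPM, SD, n = 2, against 262 ± 71.5 CPM, n = 3). The log2 fold change was -0.97 ± 0.27 (adjusted p = 0.0582, edgeR). This call was lost without either parental replicate (adjusted p = 0.4 and 0.315) and without SDHBKO replicate 1 (0.228) or 2 (0.122). SDHBKOSDHAlow replicate 2 alone of its group lay at the parental level. With it the log2 fold change against parental cells was -0.58 and not called (adjusted p = 0.379, edgeR). Without it the log2 fold change was -0.96 (adjusted p = 0.0283, edgeR), the 1 call in 15 alternatives. The sample left out there is the 1 that differed, so that fit cannot decide whether the groups differ. MGST1 and MGST3, microsomal transferases that also act on lipid peroxides, were both lower in every SDHBKO than in every parental sample. MGST1 was at 45.1 and 39.8 against 26.0, 8.89 and 19.4 CPM, and MGST3 at 101 and 123 against 67.0, 77.8 and 61.5 CPM. Neither was called (log2 fold change -1.25 ± 0.44, adjusted p = 0.13, and -0.70 ± 0.24, adjusted p = 0.127, edgeR). Other uncalled members, among them TXN2, TXNRD2 and AKR1B1, also had SDHBKO samples that did not overlap the parental ones. The share of all tested genes separated in this way was not computed, so such separation is given as description only. The remaining tested enzymes of the group, GPX1, GSTO1 and GSTK1, had log2 fold changes in SDHBKO against parental cells between -0.40 and 0.12, and GLRX had 0 to 4 counts.

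**Figure D3:**
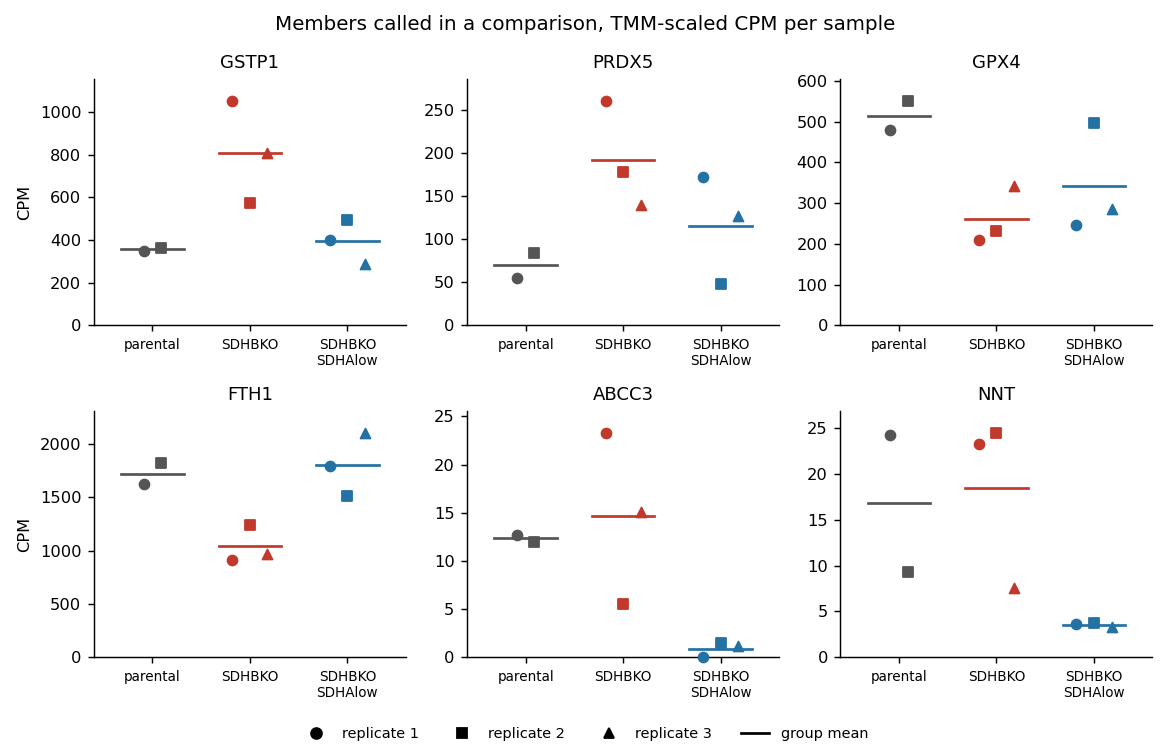
CPM per sample (y axis, from 0) of the 6 members called in at least 1 comparison, by group (x axis); symbols mark replicates and bars group means. GSTP1 and PRDX5 lie above the parental samples in all SDHBKO samples, GPX4 and FTH1 lie below them, and ABCC3 and NNT are lowest in the 3 SDHBKOSDHAlow samples.

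In the thioredoxin system, which passes electrons from NADPH to peroxiredoxins and other proteins, none of the 4 tested members was called in any comparison. Their log2 fold changes in SDHBKO against parental cells ran from -0.52 for TXN to 0.47 for TXNRD1. TXN, the cytosolic thioredoxin, differed between the parental samples themselves, at 113 and 41.2 CPM. TXN2 and TXNRD2, the mitochondrial pair, were at 351 to 481 and 51.1 to 92.9 CPM.

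All 6 peroxiredoxins were tested and PRDX5 was called. PRDX5, a peroxiredoxin found in mitochondria, peroxisomes and cytosol, was at 55.5 and 83.6 CPM in parental, 260, 178 and 139 CPM in SDHBKO, and 173, 47.8 and 127 CPM in SDHBKOSDHAlow cells. It rose 2.76-fold in SDHBKO against parental cells (log2 fold change 1.47 ± 0.39, adjusted p = 0.0512, edgeR), and no SDHBKO sample overlapped a parental one. The call was lost without either parental replicate (adjusted p = 0.515 and 0.164) and without SDHBKO replicate 1 (0.224). The 3 SDHBKOSDHAlow samples split: replicates 1 and 3 lay within or near the SDHBKO range and replicate 2 below both parental samples. Against parental cells the log2 fold change was 0.72 with replicate 2 and not called (adjusted p = 0.475, edgeR). It was called in 1 of 15 alternatives, without replicate 2 (log2 fold change 1.11, adjusted p = 0.0474, edgeR). The sample left out there is the 1 that differed, so that fit cannot decide whether the groups differ. PRDX1, the abundant cytosolic peroxiredoxin and a known NRF2 target, was at 479 and 535 CPM in parental, 825, 650 and 840 CPM in SDHBKO, and 523, 769 and 481 CPM in SDHBKOSDHAlow cells. It was higher in all SDHBKO than in both parental samples, without being called (log2 fold change 0.61 ± 0.23, adjusted p = 0.157, edgeR). Its 3 highest values were in SDHBKO replicates 1 and 3 and SDHBKOSDHAlow replicate 2, the samples with the excess of GC-rich genes. The part of this excess in the PRDX1 values was not tested beyond the correction for GC content. PRDX1 was called in 3 of 15 alternatives in SDHBKO against parental cells. The lowest adjusted p (0.0344, edgeR) came without SDHBKOSDHAlow replicate 2, a sample outside this comparison, in a fit that called more members in all. In SDHBKOSDHAlow against SDHBKO cells it was called in 1 of 15, also without that replicate (log2 fold change -0.64, adjusted p = 0.0499, edgeR). PRDX2, PRDX3, PRDX4 and PRDX6 had log2 fold changes between -0.17 and 0.16 in SDHBKO against parental cells.

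SOD1, which turns superoxide into hydrogen peroxide, was at 255 and 248 CPM in parental and 374, 201 and 234 CPM in SDHBKO cells. CAT, which removes hydrogen peroxide in peroxisomes, had 1 to 11 counts per sample. Neither was called, with log2 fold changes of 0.10 and 0.44. Of the other detoxification members, BLVRB, which reduces biliverdin and flavins, ran from 62.5 to 151 CPM and AKR1B1, an aldose reductase, from 64.5 to 96.9 CPM, neither called. The aldo-keto reductases AKR1C1, AKR1C2 and AKR1C3 had 0 to 10 counts and were not tested. Their sequences were not compared, so whether reads are shared among them is not known.

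Ferritin stores iron in a shell of heavy and light chains encoded by FTH1 and FTL. FTH1 was at 1626 and 1819 CPM in parental, 913, 1244 and 967 CPM in SDHBKO, and 1796, 1516 and 2103 CPM in SDHBKOSDHAlow cells. All SDHBKO samples lay below all others, and the SDHBKOSDHAlow samples surrounded the parental ones. It fell by 0.73 ± 0.21 on the log2 scale in SDHBKO against parental cells (adjusted p = 0.0637) and rose by 0.79 ± 0.19 in SDHBKOSDHAlow against SDHBKO cells (adjusted p = 0.045, edgeR). The log2 fold change between SDHBKOSDHAlow and parental cells was 0.07, with a 95% interval from -0.37 to 0.50. FTL was at 2406 and 2825 CPM in parental, 2310, 2790 and 3364 CPM in SDHBKO, and 2905, 4160 and 3081 CPM in SDHBKOSDHAlow cells, with overlapping groups in the first comparison and a log2 fold change of 0.11 (95% interval -0.34 to 0.56). All 3 SDHBKOSDHAlow samples lay above both parental ones, with a log2 fold change of 0.37 that was not called (adjusted p = 0.508, edgeR). A difference between the responses of the 2 chains was not tested. The first FTH1 call was lost without parental replicate 1 (adjusted p = 0.44), parental replicate 2 (0.351), SDHBKO replicate 1 (0.198) or SDHBKO replicate 3 (0.196). The second was lost in 6 of the 8 fits that left out 1 sample, all except those without SDHBKO replicate 2 or SDHBKOSDHAlow replicate 2, with adjusted p-values up to 0.256, and in a fit of only the 2 groups (0.108), although the log2 fold change stayed between 0.67 and 0.94.

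FTH1 has many processed pseudogenes, and reads that align to several places were not counted on genes. The share of such reads was 10.2% and 10.9% in parental, 16.1%, 14.7% and 14.4% in SDHBKO, and 12.3%, 9.72% and 11.3% in SDHBKOSDHAlow samples, highest where FTH1 was lowest, and its part in the FTH1 values was not tested. Counts placed on FTH1 pseudogenes summed to 4 to 11 per sample. BEST1, which overlaps FTH1 on the opposite strand, had 0 counts.

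TFRC, the transferrin receptor that brings iron into the cell and a gene of the wider list, gave the lowest adjusted p of all genes in either list in these comparisons. It was at 127 and 55.8 CPM in parental, 12.3, 15.6 and 9.71 CPM in SDHBKO, and 43.4, 20.1 and 31.2 CPM in SDHBKOSDHAlow cells. The 3 groups did not overlap, with SDHBKO lowest and SDHBKOSDHAlow between. TFRC fell 7.28-fold in SDHBKO against parental cells (log2 fold change -2.86 ± 0.41, adjusted p = 0.00267) and was lower in SDHBKOSDHAlow than in parental cells (-1.57 ± 0.37, adjusted p = 0.0761, edgeR). The rise between SDHBKO and SDHBKOSDHAlow cells, 1.29 ± 0.41, was not called (adjusted p = 0.184, edgeR). This rise was called in 2 of 15 alternatives, with log2 fold changes from 1.00 to 1.54. The parental samples differed from each other, and without parental replicate 1 the first log2 fold change was -2.14 and not called (adjusted p = 0.272) and the second -0.84 (adjusted p = 0.886). The second was also lost without SDHBKO replicate 1 (adjusted p = 0.105) or SDHBKOSDHAlow replicate 1 (0.127), and in a fit of only the 2 groups (0.158).

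**Figure D4:**
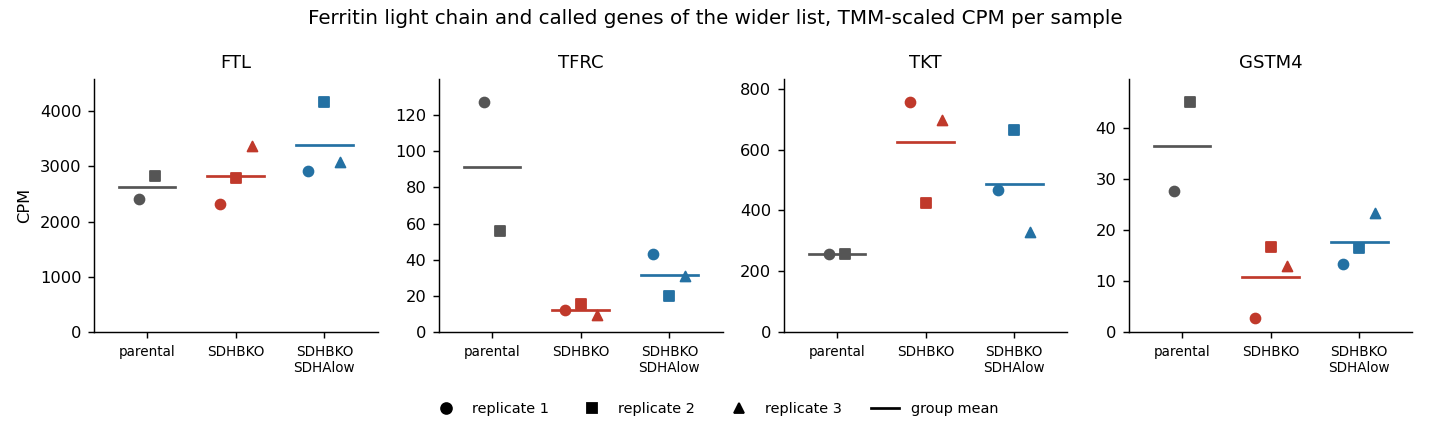
CPM per sample (y axis, from 0) of FTL and of the 3 called genes of the wider list, TFRC, TKT and GSTM4, by group (x axis); symbols mark replicates and bars group means. TFRC is lowest in SDHBKO cells, at 9.71 to 15.6 CPM, TKT is above the parental level in all 6 modified samples, and FTL overlaps between parental and SDHBKO cells.

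The largest decreases among members were in the exporter ABCC3 and in NNT, both at low counts. ABCC3, a pump for glutathione, glucuronide and bile-salt conjugates, had 11 and 9 counts in parental, 17, 5 and 14 in SDHBKO, and 0, 2 and 1 in SDHBKOSDHAlow cells. The 3 SDHBKOSDHAlow samples lay below all others. Summed over samples and scaled, the 3 counts of SDHBKOSDHAlow cells against the 36 of SDHBKO cells were a 14.4-fold lower level, with an exact 95% counting interval from 4.55 to 73.0, and against the 20 of parental cells 12.6-fold lower (3.75 to 66.4). ABCC3 was called lower against SDHBKO cells (adjusted p = 0.0216) and against parental cells (adjusted p = 0.0837, edgeR). The first call was lost without SDHBKO replicate 1 (adjusted p = 0.148). The second was lost without parental replicate 1 (0.799), parental replicate 2 (0.235), SDHBKO replicate 1 (0.105), SDHBKO replicate 3 (0.131) or SDHBKOSDHAlow replicate 1 (0.261), and in a fit of only the 2 groups (0.149). ABCC1, a related exporter of glutathione conjugates, was at 13.9 and 13.3 CPM in parental, 2.74, 6.67 and 6.47 CPM in SDHBKO, and 18.1, 14.9 and 10.03 CPM in SDHBKOSDHAlow cells. Its SDHBKO samples lay below all others, on 2 to 6 counts each, and no comparison was called (adjusted p = 0.247 in SDHBKO against parental cells, edgeR). A difference between the 2 exporters was not tested.

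NNT, the inner-membrane transhydrogenase that uses the proton gradient to make mitochondrial NADPH, had 21 and 7 counts in parental, 17, 22 and 7 in SDHBKO, and 3, 5 and 3 in SDHBKOSDHAlow cells. Counts ran from 7 to 21 in parental and from 7 to 22 in SDHBKO samples, and all SDHBKOSDHAlow samples lay below them. NNT fell by 2.31 ± 0.59 on the log2 scale against SDHBKO cells (adjusted p = 0.0744, edgeR). Against parental cells the log2 fold change was -2.21 ± 0.65 and not called (adjusted p = 0.147). It ranged from -2.72 without parental replicate 2 to -1.34 without parental replicate 1, and it was called in 1 of 14 alternatives, with no filter on low counts (adjusted p = 0.0706). The first call was lost without parental replicate 1 (adjusted p = 0.1), SDHBKO replicate 1 (0.279), SDHBKO replicate 2 (0.207), SDHBKOSDHAlow replicate 1 (0.162) or SDHBKOSDHAlow replicate 3 (0.248). The antisense gene NNT-AS1 overlaps an exon of NNT and had 8 and 2 counts in parental, 4, 10 and 4 in SDHBKO, and 1, 3 and 1 in SDHBKOSDHAlow cells.

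A wider list of 107 related genes gave the surroundings of these members. Of these, 106 were matched to the files and 67 tested. In SDHBKO against parental cells 3 of the 67 were called, TKT higher and TFRC and GSTM4 lower (4.48%, against 5.54% of all tested genes). In SDHBKOSDHAlow against SDHBKO cells none of the 67 was called by edgeR, against 1.51% of all tested genes. Against parental cells TFRC was the 1 gene called (1.49%, against 0.914% of all tested genes).

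By role, none of 8 tested NRF2 partners and repressors was called in any comparison. Of 11 tested NADPH-supply genes, TKT was called. TKT, transketolase of the pentose phosphate pathway, was at 256 CPM in both parental samples, 757, 426 and 696 CPM in SDHBKO, and 468, 663 and 329 CPM in SDHBKOSDHAlow cells. All 6 modified samples lay above the parental ones. The 3 highest values were in SDHBKO replicates 1 and 3 and SDHBKOSDHAlow replicate 2, the samples with the excess of GC-rich genes. The part of this excess in the TKT values was not tested beyond the correction for GC content. After that correction TKT was still called in SDHBKO against parental cells. The log2 fold change was 1.29 ± 0.28 in SDHBKO against parental cells (adjusted p = 0.0189, edgeR). In SDHBKOSDHAlow against parental cells it was 0.93 ± 0.28 and not called (adjusted p = 0.153, edgeR). The latter difference was called in 3 of 15 alternatives, with log2 fold changes from 0.63 to 1.15. The TKT call was lost without either parental replicate (adjusted p = 0.369 and 0.165) and without SDHBKO replicate 1 (0.117).

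Of 17 other tested glutathione enzymes and transporters, GSTM4 was called. GSTM4, a mu-class transferase, was at 27.8 and 45.1 CPM in parental, 2.74, 16.7 and 12.9 CPM in SDHBKO, and 13.3, 16.4 and 23.4 CPM in SDHBKOSDHAlow cells. Its reads may be shared with other mu-class genes, which was not tested. Of these, GSTM1 and GSTM2 had 0 counts in all 8 samples. GSTM3, below the count minimum, had 11 and 5 counts in parental, 0 in every SDHBKO sample, and 0, 0 and 1 in SDHBKOSDHAlow cells. The log2 fold change of GSTM4 was -1.69 ± 0.50 in SDHBKO against parental cells (adjusted p = 0.0752, edgeR). The call was lost without parental replicate 1 (adjusted p = 0.343), parental replicate 2 (0.414), SDHBKO replicate 1 (0.219) or SDHBKO replicate 3 (0.155). None of 11 other thioredoxin and peroxide genes and none of 11 other NRF2 targets was called in any comparison. Of 9 tested ferroptosis and iron genes, TFRC was the 1 called.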

How the data were processed

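The 8 samples were grouped by the modification in their labels. The authors trimmed reads with Trimmomatic, removed ribosomal and mitochondrial reads, aligned the rest to GRCh38 (annotation release 87) with STAR 2.5.2b and deposited raw counts per gene. The deposited normalized signal, counts divided by a DESeq2 size factor, served only to check the files: there, SDHBKO replicates 1 and 3 matched raw replicates 3 and 1, and raw numbering was used. Rows that name no gene held 18.8% to 28.6% of reads and stayed out of library sizes.

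Genes with a BaseMean above 5 were tested with edgeR 4.0.16 (R 4.3.3): TMM, quasi-likelihood, all 8 samples and 3 groups in 1 fit (5 residual degrees of freedom). The standard error is the log2 fold change divided by the square root of F, and intervals are 95%. Adjusted p below 0.1 was the study's threshold. The biological coefficient of variation was 21.5%. Counting intervals and floors (3 counts) cover counting error only. Scripts were tested on simulated data.

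The members, the wider list and the genes named were chosen with earlier results of these data known. The rule named every called gene of both lists, the regulators, the classical targets and, among the other members, the largest change of each role. SOD2, of the wider list, is not analysed here. Gene names, overlaps and GC content came from GENCODE 44, promoters from RefSeq (GRCh38.p14). Alternatives were no filter, filterByExpr, DESeq2 size factors, DESeq2 1.42.0, only the 2 groups compared, adjusted p below 0.05, a replicate block, each sample left out, and, chosen after seeing the data, a GC correction (lowess, span 0.3, GC content of the last 300 transcript bases, as an offset). A fit without 1 parental sample assumes that the lone sample varies like the other groups.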

Additional observations from a re-analysis of the deposited data

Results flagged for a closer look

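The share of reads that align to several places lies outside the gene counts that were compared. It was 15.1% ± 0.87 (SD, n = 3) of all reads in SDHBKO samples, above the parental samples (10.5% ± 0.53, n = 2) and the SDHBKOSDHAlow samples (11.1% ± 1.29, n = 3), with no overlap between SDHBKO samples and the others. It was listed because it is a signal in rows of the files that no comparison used, and because the level in SDHBKO samples was above that of the parental controls. The difference was not tested.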

How the results depend on the processing

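The counts of called members rest on few libraries. In SDHBKO against parental cells the 4 calls became 9 in a fit of only the 2 groups and 1 at an adjusted p below 0.05, and ranged from 0 (without parental replicate 1, parental replicate 2 or SDHBKO replicate 1) to 9 (without SDHBKOSDHAlow replicate 2) when 1 sample was left out. The 9 added HMOX1, MGST1, MGST3, PRDX1 and SLC7A11 to the 4 in both fits. Calls over all 7550 tested genes rose as well, from 418 to 773 with only 2 groups and to at most 833 with 1 sample left out. The rise is therefore not particular to the members. In SDHBKOSDHAlow against SDHBKO cells the 4 became 2 in DESeq2, which gave ABCC3 and NNT no adjusted p, and 0 (without SDHBKO replicate 1) to 5 (without SDHBKOSDHAlow replicate 2) with 1 sample left out. In SDHBKOSDHAlow against parental cells the 1 became 3 with no filter on low counts, 0 in DESeq2 (no adjusted p for ABCC3), 0 in a fit of the 2 groups, 0 at 0.05, and 0 to 3 with 1 sample left out. The 5 of the test of any difference became 3 at 0.05, and 1 (without parental replicate 1 or SDHBKO replicate 1) to 9 (without SDHBKOSDHAlow replicate 2). Over all genes, the 418 called in SDHBKO against parental cells became 773 with only 2 groups, 171 at 0.05 and 0 to 833 with 1 sample left out (0 without parental replicate 1). The 114 of SDHBKOSDHAlow against SDHBKO cells became 64 with only 2 groups, 64 at 0.05 and 39 to 362. The 69 of SDHBKOSDHAlow against parental cells became 152 with no filter, 7 with only 2 groups, 13 at 0.05 and 4 to 172. The 330 of any difference became 518 with no filter, 190 at 0.05 and 43 to 926. The cause of these moves was not tested.

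Samples of the same replicate number did not deviate together (7 pairs, correlations from -0.27 to 0.09), and the labels tie the numbers to nothing shared. A fit with the number as a replicate block called 3 members in SDHBKO against parental cells (GSTP1, PRDX5 and GPX4; FTH1 was lost, adjusted p = 0.138). In SDHBKOSDHAlow against SDHBKO cells it called 2 (GSTP1 and ABCC3), with FTH1 (0.146) and NNT (0.13) lost. In SDHBKOSDHAlow against parental cells it called 0, with ABCC3 (0.185) lost, and of the wider list TFRC (0.19) was lost there. It called 2 for any difference (GSTP1 and ABCC3), and 199, 59, 12 and 164 genes in all.

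The median log2 fold change of members ranged from -0.082 to 0.11 with 1 sample left out in SDHBKO against parental cells, from 0.002 to 0.13 in SDHBKOSDHAlow against SDHBKO cells, and from 0.10 to 0.17 against parental cells. Among the called changes, the regulators and the classical targets, signs turned for 6 genes, none of them called in that comparison. In SDHBKO against parental cells MAFG was 0.058 under the block and -0.13 to 0.14 with 1 sample left out, KEAP1 was -0.018 after the GC correction and -0.024 to 0.20 with 1 left out, GCLM was -0.29 to 0.90 and NQO1 -0.028 to 0.23. In SDHBKOSDHAlow against SDHBKO cells HMOX1 was -0.029 in DESeq2, -0.149 under the block, -0.026 after the GC correction and -0.91 to 0.37 with 1 left out, and TXNRD1 -0.15 to 0.33. GCLM against parental cells was -0.75 to 0.44 in SDHBKOSDHAlow cells. The GC correction called 5 members in the first comparison, the 4 and MGST3, kept the calls of the other 2 comparisons, and in the test of any difference called GPX4 and not PRDX5. DESeq2 gave TFRC and GSTM4 no adjusted p in the first comparison.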
